A study of Arabidopsis thaliana with 2 samples.

Results

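The UDP-glycosyltransferases (UGTs) of Arabidopsis thaliana were compared between inflorescence stems of sgr1 and wild type. They were taken as every locus whose array description reads UDP-glucosyl transferase, UDP-glucosyltransferase, UDP-glucoronosyl transferase or UDP glycosyltransferase family, with 4 loci of glucosinolate and flavonol synthesis left out and given at the end. The rule itself used no expression value, but it was set with earlier results of these data known. It held 108 of the 25665 loci named on the array. All 108 matched a RefSeq gene, 59 of them under a UGT name. The others were HYR1, described below, and 48 loci known here by locus tag only, to which no role is given. Counts by role or phylogenetic group thus leave out UGTs without a RefSeq UGT name.

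UGTs move a sugar from a UDP-sugar, mostly UDP-glucose, onto a small acceptor such as a hormone, a phenolic acid, a lignin precursor or a flavonoid. The sugar makes the acceptor more soluble, usually ends its activity, and readies it for storage in the vacuole, from which beta-glucosidases can release it again. In stems the family is known for conjugates of monolignols, the building blocks of lignin, and of hydroxycinnamic and salicylic acid.

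The data were 2 two-colour Agilent arrays, each of which held both genotypes, with the dyes swapped between them. The mutant sgr1 (shoot gravitropism 1) carries a lesion in SCARECROW (SCR), a GRAS transcription factor needed to form the endodermis, and the wild type was Columbia. RNA came from stem pieces 1.5 cm in length, reaching from 0.3 to 1.8 cm below the apex of primary inflorescences 5 to 8 cm tall, after side organs had been taken off. Each RNA pooled at least 10 plants, which had been germinated after 3 days in the cold, kept as seedlings for 10 days and then moved to soil, all in continuous light at 23 °C after the cold. By the design text these are 2 biological replicates, but each array's own description reads replicate 1 of 1, so p-values measure the spread between these arrays, which may be technical.

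The share of spots well above background (37685 spots without controls) was higher in Cy5, at 66.5% (wild type, array 1) and 64.4% (sgr1, array 2). In Cy3 it was 59.2% (sgr1, array 1) and 59.6% (wild type, array 2). No spot was saturated. SCR had log2 intensities of 10.05 and 9.80 in sgr1 (arrays 1 and 2), against 10.86 and 10.96 in wild type, and was 1.98-fold lower (adjusted p = 3.29e-07). No source used here names the allele, and a probe outside the lesion would not check the genotype. Of 3 marker genes of the stem endodermis, SCR, SGR5 and LZY1, all were lower in sgr1. Among those of other tissues, NST1 (0.78) and IRX3 (0.40) of fibre and xylem and CER6 (0.53) of the epidermis were higher, PDF1 (-0.69) of the epidermis was lower, and ATML1, SUC2 and APL did not pass the test. All 10 markers were well above background in all 4 channels.

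UGTs moved in both directions in sgr1. Of 67 UGTs bright enough to be tested, 11 were higher and 12 lower in sgr1, and 44 did not pass (limma on the log2 ratio of sgr1 over wild type, adjusted p under 0.05 over all genes tested). Called UGTs thus made up 34.3% of those tested, with 16.4% higher and 17.9% lower, against 18.9% of all 19059 genes tested, with 9.92% higher and 8.98% lower. UGT72B3 and UGT71C1 were among the UGTs that rose, and UGT72E1, UGT84A1, UGT73B1 and UGT85A2 among those that fell, by 1.73-fold or more each. UGT78D3, which rose, and UGT79B1, which fell, were well above background in 1 genotype only and have no place in such an order. In a bulk extract, fewer cells of a type and less RNA per cell cannot be told apart.

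The median log2 ratio of the tested UGTs was 0.02, against 0.00 over all genes. It had no settled sign, at -0.03 on array 1 and 0.14 on array 2, where the medians of all genes were -0.03 and 0.04. Without regard to sign, the median UGT lay 0.24 from 0, against 0.17 for all genes, and the SD across UGTs was 0.43, against 0.36. The called UGTs had the same sign on both arrays in 23 of 23 cases, and among the 67 tested the signs matched in 49 (73.1%, against 67.2% of all genes). Calls were made on the mean of these same arrays, so the 23 of 23 are no independent support. The same holds below where both sgr1 values of a called gene lie above or below both wild-type values. No share of all genes was computed for that. Across UGTs, which are not independent replicates and share the same 2 arrays, the log2 ratios of the arrays correlated with r = 0.84, against 0.72 across all genes. Called log2 ratios began at 0.39 without regard to sign, and the UGTs that did not pass lay between -0.38 and 0.33. UGT72E1 was the 1 UGT whose arrays each showed 2-fold or more with one sign, as did 1.53% of all genes (291). With arrays centred on their medians and no loess, limma called 0 UGTs and 2 genes in all, with 0 UGTs and 90 genes at an unadjusted p under 0.05. The scanner software's log ratio kept 15 of the 23 calls.

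**Figure D1:**
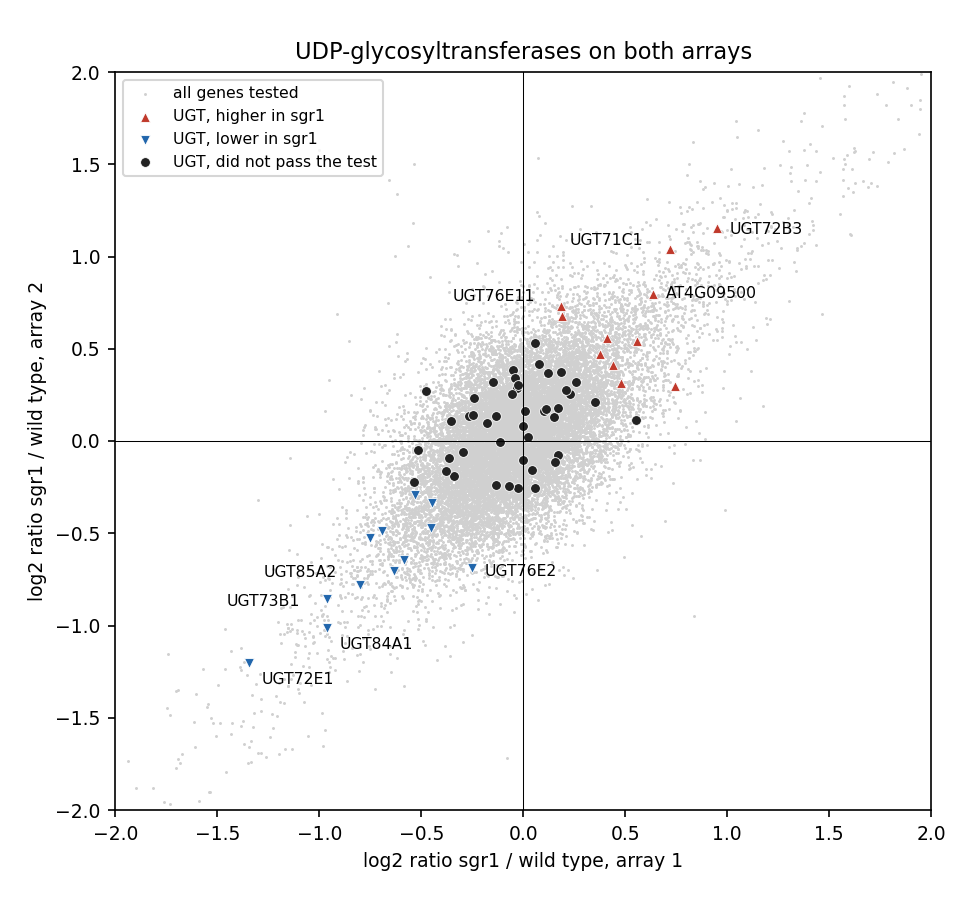
Log2 ratio of sgr1 over wild type on array 1 (x axis) against array 2 (y axis) for all genes tested (grey) and the 67 tested UGTs, with 11 higher (red), 12 lower (blue) and 44 that did not pass (black). Each point is 1 gene on 1 pair of arrays, and genes beyond 2 log2 units are not drawn. The called UGTs lie along the diagonal in both directions, from UGT72E1 (-1.34 and -1.21) to UGT72B3 (0.95 and 1.15).

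**Figure D2:**
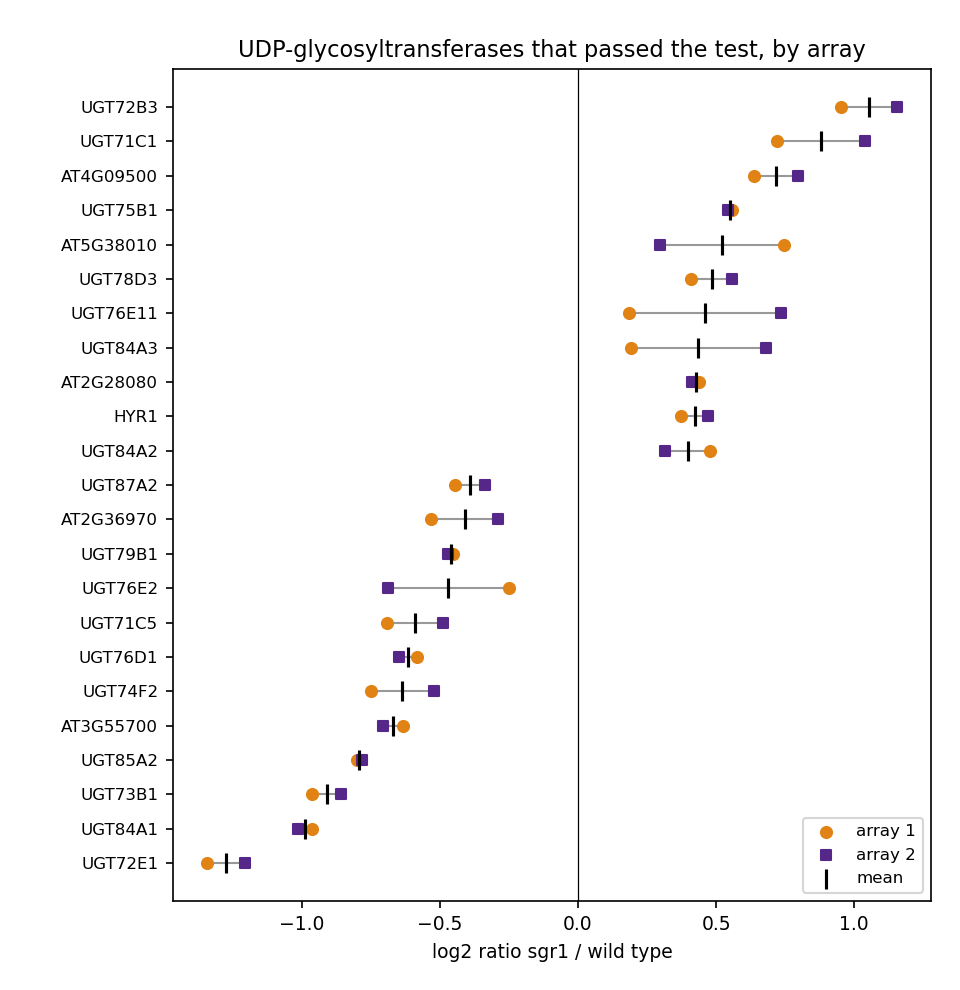
Log2 ratio of sgr1 over wild type (x axis) of the 23 called UGTs, with array 1 (circle), array 2 (square) and their mean (bar). The arrays lay close together for UGT75B1, UGT85A2 and UGT79B1 and far apart for UGT76E11, UGT84A3, AT5G38010 and UGT76E2. They were on the same side of 0 for all 23, which a call on their mean favours.

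Among the 7 tested UGTs that act on lignin precursors, 2 were higher and 2 lower in sgr1 (57.1% called, against 18.9% of all genes). The median log2 ratio was 0.28 (0.19 on array 1 and 0.12 on array 2). The enzymes that fell are UGT72E1, which glucosylates monolignols and their aldehydes, and UGT84A1, which makes glucose esters of hydroxycinnamic acids. Those that rose, UGT84A2 and UGT84A3, are close relatives of UGT84A1 with the same kind of reaction. The same arrays held the higher levels of the fibre and xylem markers NST1 and IRX3 given above, and their part in these changes was not tested.

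UGT72E1 had log2 intensities of 7.26 and 7.11 in sgr1 (arrays 1 and 2), against 8.61 and 8.31 in wild type. Both sgr1 values lay more than 1 log2 unit below either wild-type value. It was 2.42-fold lower in sgr1, with a log2 ratio of -1.27 (SD 0.0972, n = 2 arrays, adjusted p = 3.52e-10), and the scanner software's log ratio put it at -1.97. Its relatives UGT72E2 (-0.18, adjusted p = 0.428) and UGT72E3 (0.33, adjusted p = 0.0963), which act on the same substrates, did not pass. UGT72E3 was above background on only 1 array in wild type. It passed with a smaller background offset (0.54) and with a trended, robust estimate of the spread (0.33).

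UGT84A1 gave 7.95 and 7.67 in sgr1, against 8.92 and 8.68 in wild type on the same log2 intensity scale. Its arrays differed little, with log2 ratios of -0.96 and -1.01. The gene was thus 1.98-fold lower in sgr1 (adjusted p = 2.24e-07). UGT84A3, its direct neighbour on the chromosome, had intensities of 10.51 and 10.90 in sgr1, against 10.32 and 10.22 in wild type. Array 2 carried most of the rise, with log2 ratios of 0.19 and 0.68 (mean 0.43, SD 0.346, adjusted p = 0.0250). That call was lost with the scanner software's log ratio and when dim probes of all genes were kept.

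UGT84A2, known for the glucose ester of sinapic acid from which the sinapate esters of leaves and seeds are made, had intensities of 9.40 and 9.30 in sgr1, against 8.93 and 8.99 in wild type. Both sgr1 values were the higher ones. The rise was 1.32-fold (log2 ratio 0.40, SD 0.115, adjusted p = 0.0366), and it did not pass with the scanner software's log ratio. UGT72B1, which glucosylates monolignols and xenobiotics, had a log2 ratio of 0.28 and did not pass (adjusted p = 0.163). UGT84A4 was too dim to be tested.

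None of the 6 tested UGTs of salicylate and defence conjugation rose and 2 fell (33.3% called, against 18.9% of all genes). The list held 9 names, of which 8 were among the UGTs under their RefSeq name, and UGTs known by locus tag only could not be placed. All 6 tested had mean log2 ratios below 0, from -0.64 to -0.06, with a median of -0.27. Of all 19059 genes tested, 9371 lay below 0. On array 1 alone UGT76E1 was above 0 (0.06). UGT74F2 and UGT74F1 glucosylate salicylic acid, UGT76D1 acts on dihydroxybenzoic acids made from it, and UGT71C3 on its methyl ester.

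UGT74F2 had log2 intensities of 7.80 and 7.88 in sgr1, against 8.55 and 8.41 in wild type. Both arrays showed the fall, which was 1.55-fold (log2 ratio -0.64, SD 0.160, adjusted p = 0.000586). The neighbouring gene UGT74F1 gave 7.15 and 7.18 in sgr1, against 7.53 and 7.34 in wild type, a difference of -0.27 that did not pass (adjusted p = 0.185). UGT76D1 was a dim gene, at 6.76 and 6.55 in sgr1, against 7.35 and 7.20 in wild type. It was 1.53-fold lower (log2 ratio -0.62, SD 0.0447, adjusted p = 0.000819), or -1.28 with the scanner software's log ratio. UGT71C3 (-0.26), UGT73B3 (-0.06), which is needed for full resistance to Pseudomonas syringae, and UGT76E1 (-0.10), which glucosylates jasmonates, did not pass. UGT76B1, which acts on salicylic acid and on a signal of systemic resistance, and UGT73B5, a relative of UGT73B3, were too dim to be tested.

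The list of flavonoid decoration held 8 names, of which 4 were among the 108 UGTs under their RefSeq name. UGTs known by locus tag only could not be placed in it. Of these 4 listed UGTs, only UGT78D3 and UGT79B1 were bright enough to be tested, and they moved in opposite directions. UGT78D3, which adds arabinose to flavonols, had log2 intensities of 6.51 and 6.98 in sgr1, against 6.10 and 6.42 in wild type, where it was not well above background on either array. In the main setting it was at least 1.40-fold higher in sgr1 (adjusted p = 0.00918). UGT79B1, which adds xylose to anthocyanins, gave 6.26 and 6.17 in sgr1, not well above background, against 6.72 and 6.64 in wild type. In the main setting it was at least 1.38-fold lower in sgr1 (adjusted p = 0.0132). Both limits equal the folds of the fit and hold for the main setting only. Without background correction the log2 ratio of UGT78D3 was 0.44, against 0.48, and that of UGT79B1 was -0.38, against -0.46. Both genes were kept for testing only through the genotype in which they are brighter, so these p-values are no independent support for a difference. Where both channels had to be above background, 56 UGTs were tested without them, and 10 were higher and 11 lower. In that setting 18.6% of all genes tested were called. With the scanner software's log ratio UGT78D3 came out at 2.15 and UGT79B1 at -1.92.

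Among UGTs that conjugate auxin, cytokinins, brassinosteroids or abscisic acid, 1 of 8 tested was called, where 18.9% of all genes were. UGTs of salicylate and jasmonates, given above, are not in this count. UGT71C5, which converts abscisic acid to its glucose ester, had log2 intensities of 9.94 and 10.02 in sgr1, against 10.63 and 10.51 in wild type. The sgr1 values were lower on both arrays, by 1.51-fold (log2 ratio -0.59, SD 0.143, adjusted p = 0.00137). UGT71B6 (0.10) and UGT71B8 (-0.12), which share that reaction, did not pass, and each was above background on only 1 array per genotype.

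UGT76C1 and UGT76C2, neighbouring genes whose enzymes add glucose to the ring nitrogen of cytokinins, had log2 ratios of opposite sign. UGT76C2 gave log2 intensities of 6.24 and 6.31 in sgr1, where only 1 array was above background, against 6.77 and 6.53 in wild type. Its log2 ratio of -0.38 stood just outside the threshold (adjusted p = 0.0509), and it passed with 4 of the 9 other settings, among them the smaller background offset (-0.67) and the scanner software's log ratio (-1.58). UGT76C1 gave 9.97 and 10.37 in sgr1, against 9.91 and 9.84 in wild type, and did not pass (0.29, adjusted p = 0.154). The 2 tested UGTs of auxin conjugation, UGT74D1 (-0.14) and UGT74E2 (0.08), which act on indole-3-acetic and indole-3-butyric acid, did not pass. UGT73C5, which inactivates brassinosteroids, had a log2 ratio of 0.24 and did not pass (adjusted p = 0.238), but passed with the smaller offset (0.44) and the scanner software's log ratio (1.50). UGT84B1, UGT84B2, UGT85A1, UGT73C1 and UGT73C6 of the auxin, cytokinin and brassinosteroid lists were too dim to be tested.

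**Figure D3:**
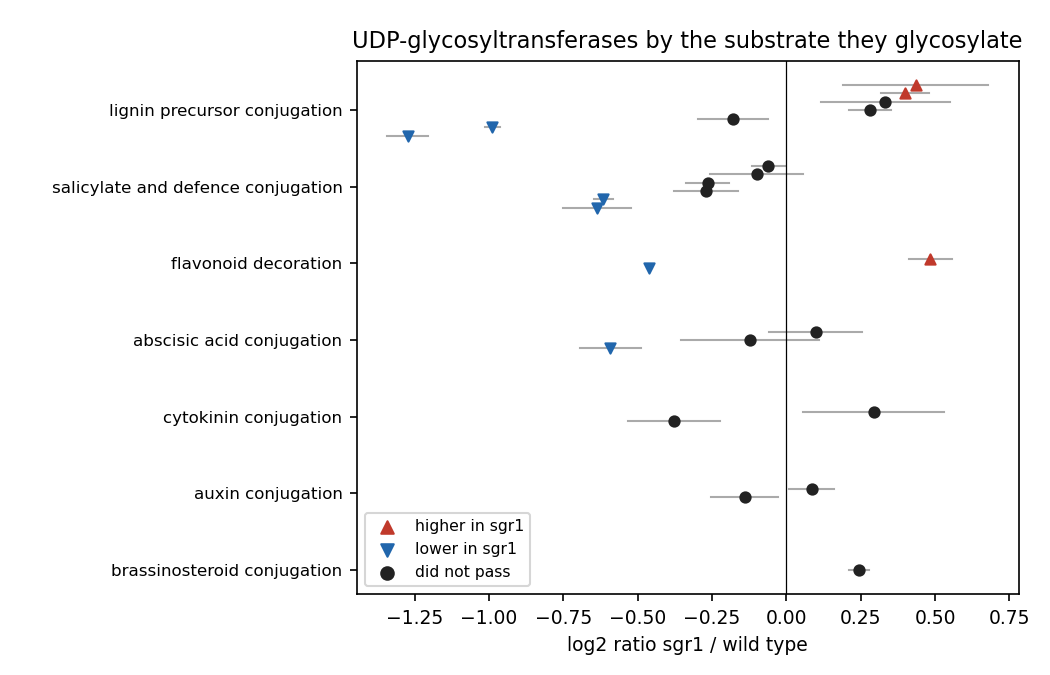
Log2 ratio of sgr1 over wild type (x axis) of the tested UGTs by the class of acceptor they are known to glycosylate (y axis). Each is drawn as the mean (symbol) and the range of the 2 arrays (line), and UGTs without a RefSeq UGT name are in no class. UGTs of lignin precursors lie on both sides of 0, from -1.27 to 0.43, and the means of all 6 of salicylate and defence conjugation lie below it, with the arrays of UGT76E1 (0.06 and -0.26) on either side.

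Several rises were of UGTs outside these role lists. UGT72B3, a relative of UGT72B1 in the same subfamily, had log2 intensities of 7.70 and 8.12 in sgr1, against 6.75 and 6.97 in wild type. It was 2.07-fold higher in sgr1 (log2 ratio 1.05, SD 0.143, adjusted p = 5.72e-08), and higher on both arrays. UGT71C1, which glucosylates lignans among other phenolics, gave 7.45 and 7.72 in sgr1, against 6.73 and 6.68 in wild type. It was 1.84-fold higher (0.88, SD 0.227, adjusted p = 3.51e-06). These are dim genes, and the scanner software's log ratio put UGT72B3 at 2.08 and UGT71C1 at 1.91.

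AT4G09500 had log2 intensities of 11.49 and 11.59 in sgr1, against 10.85 and 10.79 in wild type, and was 1.64-fold higher (adjusted p = 0.000104). UGT75B1, whose protein is found at the forming cell plate with callose synthase, gave 9.40 and 9.38 in sgr1, against 8.84 and 8.84 in wild type. Its arrays were nearly equal, and the rise was 1.46-fold (0.55, SD 0.0117, adjusted p = 0.00284). The description on the array names this locus, AT1G05560, UGT75B2, and the name here is that of RefSeq. HYR1, which turns the compound hypostatin into an active growth inhibitor, gave 12.41 and 12.39 in sgr1, against 12.04 and 11.92 in wild type. The sgr1 values were higher on both arrays, by 1.34-fold (0.42, adjusted p = 0.0250).

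AT2G28080 was 1.34-fold higher in sgr1, with like log2 ratios on both arrays (0.44 and 0.41, adjusted p = 0.0234). The remaining rises, of AT5G38010 (0.75 and 0.30, mean 0.52) and UGT76E11 (0.18 and 0.73, mean 0.46), were unequal between arrays. With the scanner software's log ratio AT2G28080, AT5G38010, HYR1 and UGT76E11 did not pass. That of UGT76E11 was also lost without background correction and when dim probes were kept.

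Among the falls outside the role lists, UGT73B1 had log2 intensities of 9.70 and 9.62 in sgr1, against 10.66 and 10.48 in wild type. It was 1.88-fold lower in sgr1 (-0.91, SD 0.0740, adjusted p = 1.37e-06). UGT85A2 gave 8.22 and 8.13 in sgr1, against 9.02 and 8.91 in wild type, and was 1.73-fold lower (-0.79, SD 0.0129, adjusted p = 1.94e-05). In both genes each sgr1 value lay below both wild-type values.

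AT3G55700, at 7.77 and 7.60 in sgr1 against 8.40 and 8.31 in wild type, was 1.59-fold lower (-0.67, adjusted p = 0.000278). UGT87A2, which influences flowering time, gave 8.43 and 8.41 in sgr1, against 8.87 and 8.75 in wild type, and was 1.31-fold lower (-0.39, adjusted p = 0.0400). This call was lost without background correction and with the scanner software's log ratio. UGT76E2 (-0.25 and -0.69, mean -0.47) and AT2G36970 (-0.53 and -0.29, mean -0.41) were lower on both arrays by unequal amounts. With the scanner software's log ratio UGT76E2 came to -1.26 and did not pass, and AT2G36970 came to -0.83.

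**Figure D4:**
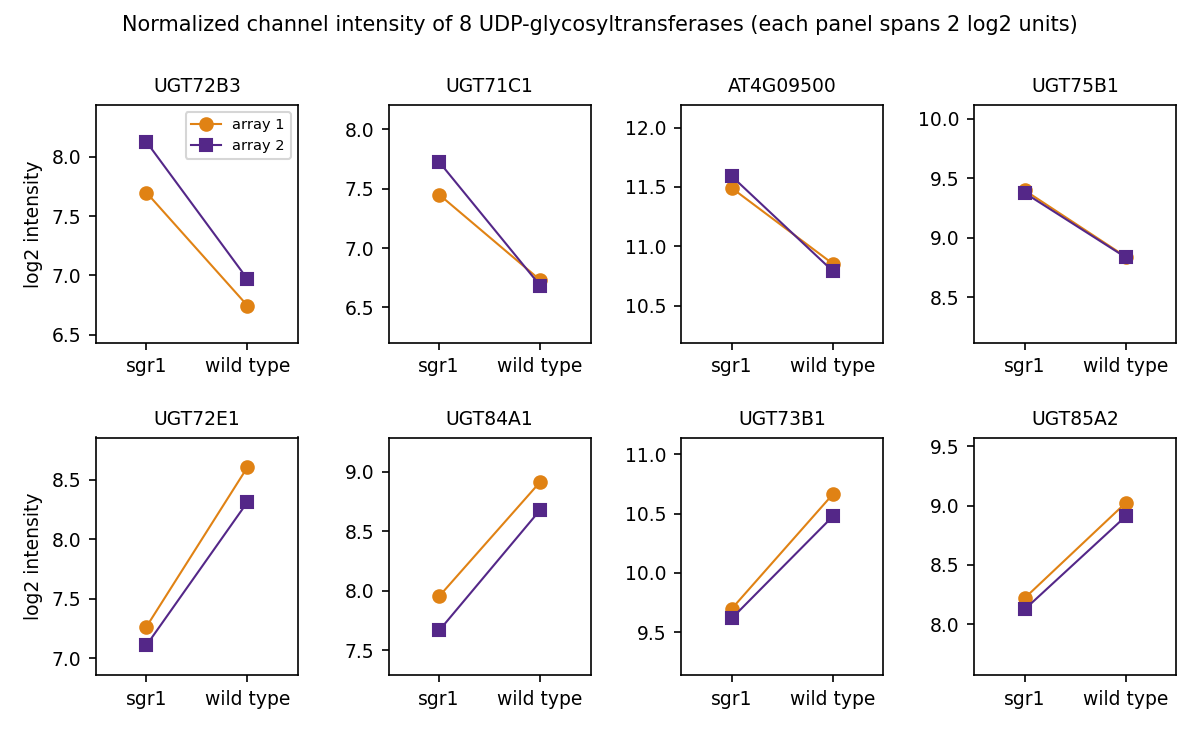
Normalized log2 intensity (y axis, each panel spans 2 log2 units) of sgr1 (left) and wild type (right) on array 1 (circle) and array 2 (square), for 4 UGTs that rose (top) and 4 that fell (bottom). The lines join the channels of 1 array. In every panel both arrays slope the same way, which a call on their mean favours. UGT72E1 lay at 7.26 and 7.11 in sgr1, against 8.61 and 8.31 in wild type.

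By phylogenetic group, the calls were spread over the family. Groups were set from RefSeq UGT names, so their counts leave out UGTs without one, HYR1 among them. Group E, with the UGT71, UGT72 and UGT88 families, had 14 tested UGTs, of which 2 were higher and 2 lower (28.6% called). In group L, with UGT74, UGT75 and UGT84, 3 of 8 tested were higher and 2 lower (62.5%). Group H, the UGT76 family, had 1 higher and 2 lower of 6 tested (50%), and group D, the UGT73 family, had 1 lower of 4 (25%). Of the 27 tested UGTs without a UGT name, 4 were higher and 2 lower (22.2%). The share of all genes called was 18.9%. The UGT80 sterol glucosyltransferases UGT80A2 (0.02) and UGT80B1 (-0.003) did not pass.

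Many UGTs lie side by side on the chromosome. In the RefSeq gene order, 69 of the 108 lay in 24 runs with at most 1 other gene between neighbours. Of these 40 were tested (58.0%) and 13 called, and of the 39 that lay alone 27 were tested (69.2%) and 10 called. The called share was 34.3% over all tested UGTs and 18.9% over all genes. Probes of neighbouring copies may share signal, and how far they do was not tested.

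Signs of neighbours matched about as often as they differed. Among 17 pairs of UGTs with at most 1 other gene between them and both tested, the sign was the same in 9 and opposite in 8. Some of these signs are of values near 0, as in AT2G18560 (-0.06) and AT2G18570 (0.05). Of all genes tested, 9688 lay above 0 and 9371 below, and no share of matching neighbours was computed for them. The median difference within a pair was 0.37 without regard to sign. UGT84A1 and UGT84A3 lay farthest apart, at -0.99 and 0.43, a difference of -1.15 on array 1 and -1.69 on array 2. UGT85A7 (0.29, not passing, adjusted p = 0.147) lay next to UGT85A2 (-0.79), with differences of 1.06 and 1.10. UGT85A7 passed with the smaller background offset (0.51), the trended, robust spread (0.29) and the scanner software's log ratio (1.22). UGT71C5 (-0.59) lay next to UGT71C4 (0.28, not passing, adjusted p = 0.165), with differences of -0.88 and -0.87. These differences were the same in sign on both arrays. No test of a difference between genes was made.

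In the run of UGT71B1 (0.24), HYR1, UGT71B6, AT3G21790 (0.09) and UGT71B8, HYR1 alone was called. UGT74F2 and UGT74F1 were both below 0, as were AT3G55700 and AT3G55710 (-0.28, adjusted p = 0.178). UGT76E2 (-0.47) lay beside UGT76E1 (-0.10). UGT71C1 (0.88) shared its run with AT2G29710 (-0.23), UGT71D1 (0.17) and UGT71C2, which was too dim. In the UGT73C run of 6 genes, only UGT73C5 was tested, and in the run of UGT76E11 it was the only one tested of 5.

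**Figure D5:**
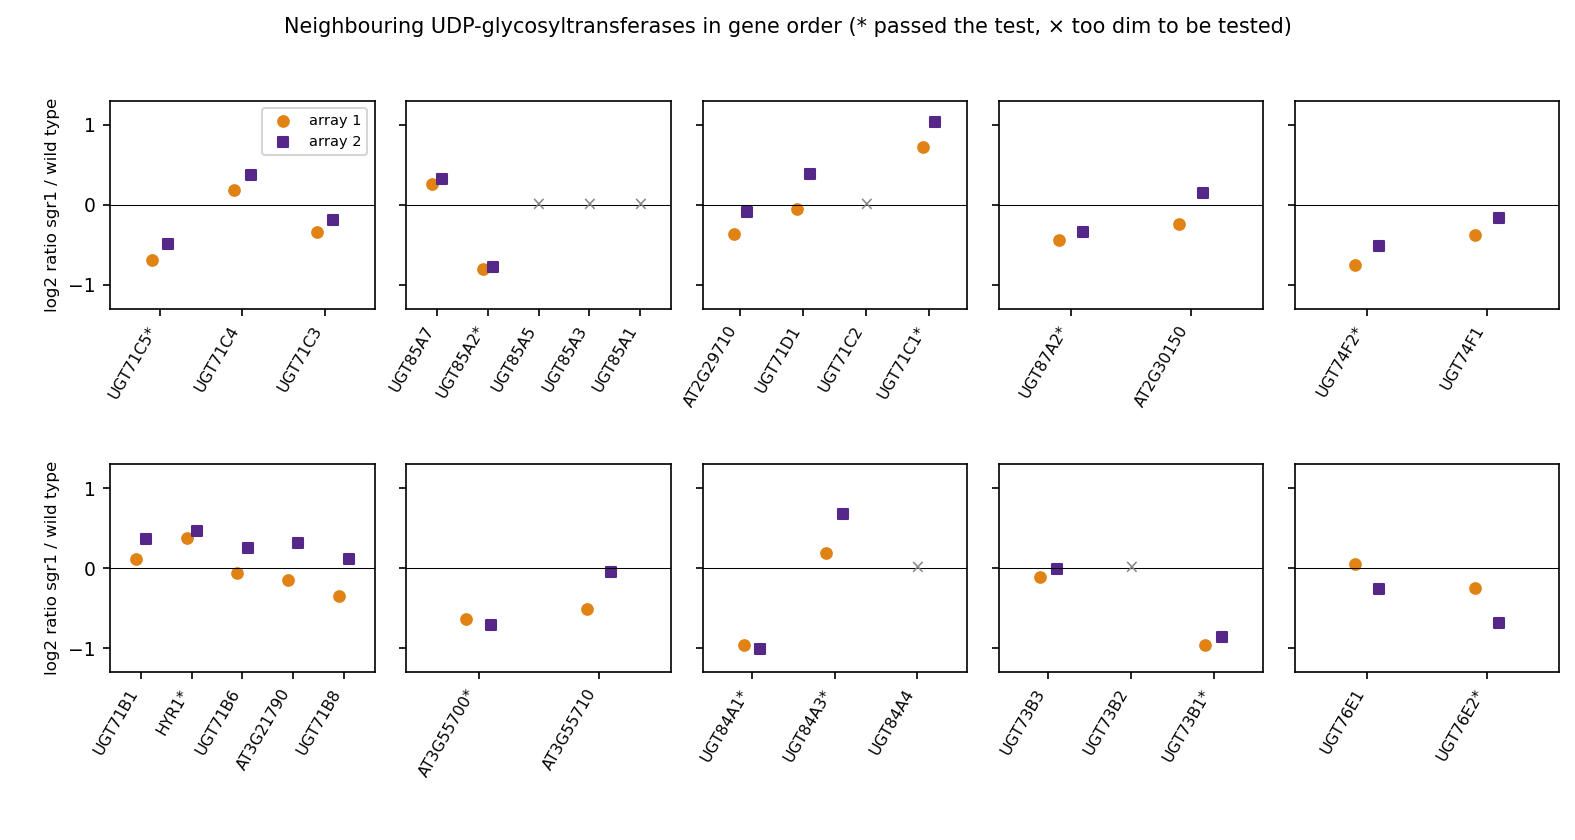
Log2 ratio of sgr1 over wild type (y axis) on array 1 (circle) and array 2 (square) of neighbouring UGTs in their order along the chromosome (x axis), for the runs that hold a called UGT and another member tested. A star marks UGTs that passed the test and a cross those too dim to be tested. UGT84A1 (-0.99) and UGT84A3 (0.43) lie on opposite sides of 0, while UGT74F2 (-0.64) and UGT74F1 (-0.27) lie on the same side.

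The 41 UGTs not tested were dim. Of these, 33 were well above background in no channel of either array, and 8 in some channel of 1 array only. UGT75B2, UGT73C1, UGT76B1, AT2G22930 and AT5G17040 were above background in sgr1 alone, on 1 array. Their sgr1 values were the higher on array 2, where sgr1 carried Cy5. UGT85A1 and UGT84A4 were so in wild type alone, on 1 array, with the higher wild-type value on array 1, where wild type carried Cy5. AT5G14860 was above background in both genotypes, on 1 array. The part of the dye in these detections was not tested. No level or difference is given for the 41.

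Of 31 tested genes that supply UDP-sugars, the other substrate of UGTs, 1 rose and 1 fell (6.45% called, against 18.9% of all genes). Their median log2 ratio was 0.12. RHM1, which makes UDP-rhamnose, gave log2 intensities of 14.45 and 14.32 in sgr1, against 13.80 and 14.02 in wild type (log2 ratio 0.47, adjusted p = 0.0119). SUS1, a sucrose synthase that releases UDP-glucose, gave 10.66 and 10.47 in sgr1, against 10.91 and 11.11 in wild type (-0.45, adjusted p = 0.0179). Neither gene passed with the scanner software's log ratio.

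Of 27 tested beta-glucosidases, the family that can take such sugars off again, 8 were higher and 3 lower in sgr1 (40.7% called, against 18.9% of all genes). Their median was 0.15 (0.07 on array 1 and 0.21 on array 2). With the scanner software's log ratio 9 of this family passed, where 10.2% of all genes did, and BGLU40 did not (0.58). BGLU18, which releases abscisic acid from its glucose ester, the product of UGT71C5, had intensities of 13.96 and 14.25 in sgr1, against 15.66 and 15.97 in wild type. It was lower on both arrays (log2 ratio -1.71, SD 0.0220, adjusted p = 3.44e-14). No list of beta-glucosidases by substrate was made, so BGLU18 alone gives no direction for the release of abscisic acid. BGLU26 (PEN2), an atypical myrosinase of defence against fungi, was lower too (-0.94, adjusted p = 6.61e-07), as was BGLU28 (-0.65). The myrosinases BGLU37 (TGG2, 1.04, adjusted p = 7.15e-08) and BGLU38 (TGG1, 0.93), which cleave glucosinolates, were higher, as were BGLU33 (0.88), BGLU9 (0.78), BGLU39 (0.64) and BGLU40 (0.60). BGLU45 (-0.08) and BGLU46 (-0.11), which act on monolignol glucosides, the products of the UGT72E enzymes, did not pass.

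Of the 4 UGTs left out of the family count, 3 were higher in sgr1. UGT74B1, which forms the thioglucose bond of glucosinolates, had log2 intensities of 13.11 and 13.31 in sgr1, against 12.11 and 12.06 in wild type (1.13, adjusted p = 1.23e-08). AT2G31790 (0.60, adjusted p = 0.00102) and UGT78D2, the flavonoid 3-glucosyltransferase (0.53, adjusted p = 0.00416), were also higher. UGT78D1, the flavonol rhamnosyltransferase, had a ratio of 0.31 and did not pass (adjusted p = 0.110).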

How the data were processed

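The deposited scanner files hold, per spot and channel, mean intensity and median background intensity, flags for spots well above background, saturated or outlying, and a log10 ratio of Cy5 over Cy3; Agilent Feature Extraction 9.1.3.1 made them, per the file headers. A table of values deposited by the authors repeats this log10 ratio (0 values differ by over 1e-06), not turned for the dye swap, with medians of 0. No genome build of the probe design was given in the sources used here.

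From these, intensities were corrected with normexp (offset 50) and loess within arrays with limma 3.58.1 (R 4.3.3), giving control spots weight 0. Outlier spots (96 and 177) and 11251 spots naming no locus were left out. The sign of array 1 was turned, so both log2 ratios read sgr1 over wild type, as the labels give the dyes. Probes with at least 1 channel well above background on each array were kept and averaged per locus (422 loci had several). Among the tested UGTs 3 had several probes, at most 0.0766 apart. The ratio was tested against 0 with lmFit and eBayes (two-sided, Benjamini-Hochberg over 19059 loci), with 1 residual and 47.7 prior degrees of freedom and a prior SD of 0.198, so a gene can pass although its arrays differ. Medians of all genes were -0.03 and 0.04. Intensities printed are normalized log2 values per channel; they compare genotypes within a gene, not genes. Where a genotype was not well above background on either array, the fold is a lower limit for the main setting, equal here to the fit's fold. The procedure was tested on simulated data.

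The members and the lists of roles, UDP-sugar genes and markers were chosen with earlier results of these data known. Named genes were all called UGTs, tested UGTs of a role list, UGTs above background in 1 genotype only, neighbours of these in the RefSeq TAIR10.1 gene order (used for names and order only), and up to 6 called genes per direction of the other lists. A few others named by value (UGT80A2, UGT80B1, BGLU45, BGLU46) were chosen after their values were seen. Alternatives covered background correction, normalization within and between arrays, the software's log ratio, the filter on dim probes, the spread estimate and leaving out an array.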

Additional observations from a re-analysis of the deposited data

How the results depend on the processing

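Of the 23 UGT calls, 23 were kept with normexp offset 16, Aquantile or scale normalization between arrays and a trended, robust spread, 21 without background correction, with no filter on dim probes and with both channels above background, and 15 with the scanner software's log ratio. Every called UGT kept its sign in every setting in which it could be tested. Median centring within arrays ended all calls: limma called 0 UGTs (0 higher, 0 lower), 0 in the role lists, 0 UDP-sugar genes, 0 beta-glucosidases and 2 genes in all. At an unadjusted p under 0.05 it left 0 UGTs, 0 UDP-sugar genes and 1 beta-glucosidase. The median SD between arrays was 1.20 there, against 0.132 with loess. The software's log ratio called 1952 genes and 0 UDP-sugar genes, with 3 of the latter at an unadjusted p under 0.05. UGTs at least 2-fold apart on both arrays numbered 3 with normexp offset 16, 2 without background correction, 0 with median centring and 9 with the software's log ratio, and taken on 1 array alone 1 and 4. The share of all genes under this 2-fold rule is given for the main setting only (1.53%), so these counts cannot be set against all genes. Where the software's log ratio changed a count or enlarged the change of a dim UGT, the cause was not tested. With 2 arrays and 1 residual degree of freedom, signal over background limits what can be said of the dim UGTs.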
